A study of Mus musculus with 24 samples.

Results

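The cerebella of 4 WT S776A homozygous mice and 4 WT mice, 8 of the 24 libraries of the study, were compared to ask what abolishing S776 phosphorylation of normal ATXN1 does to the cerebellar transcriptome. The WT S776A homozygous mice carried the serine-to-alanine substitution S776A on both unexpanded Atxn1_2Q alleles, the WT mice carried Atxn1_2Q alleles without it, and neither group carried the expanded repeat. All 24 mice were 6 weeks old and gave 1 library each from total cerebellar RNA. The S776A allele was made by CRISPR/Cas9 editing in C57BL/6J mice and also holds synonymous changes for genotyping. More than 1 founder was bred, and the labels do not give the founder, sex or litter of a sequenced mouse. Mice are named as in their labels, S776A-140, S776A-146, S776A-151 and S776A-152 for the homozygous group and WT-138, WT-153, WT-154 and WT-157 for the WT group, and values for 4 mice are given in that order. The remaining groups were SCA1 mice, which carry 1 expanded Atxn1_154Q allele, SCA1 S776A mice, which carry the substitution on that expanded allele, and S776A double mice, which carry it on both alleles. The 4 WT mice were those of the 8 WT mice whose library, like the homozygous ones, had under 8% of its fragments on no annotated exon. This share was 5.23% to 6.31% in these 8 libraries and 9.52% to 12.0% in the remaining 16. Fragments within introns can fall into it, so it is not a share outside genes.

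ATXN1 is a nuclear protein that binds RNA and the transcriptional repressor Capicua (CIC), and an expanded polyglutamine tract in it causes spinocerebellar ataxia type 1, in which Purkinje cells of the cerebellum degenerate. Kinases including PKA and MSK1 have been proposed to phosphorylate S776, a serine that sits in a binding motif for 14-3-3 proteins near the C-terminal end. Phosphorylation there and 14-3-3 binding protect the protein from turnover. Protein was not measured in these libraries.

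The edited codon lies in exon 8 of 8 of the Atxn1 transcript with the longest coding sequence in GENCODE M21, in the coding part of that exon. It is shown because it is the codon edited to change the protein, and the edited allele also holds synonymous changes. In the reference genome (GRCm38, chr13:45557148-45557210, minus strand) the serine codon, in capitals, occupies chr13:45557178-45557180 and is codon 759 of this mouse transcript, since the name S776 follows the numbering of the human protein.
Atxn1 S776 codon: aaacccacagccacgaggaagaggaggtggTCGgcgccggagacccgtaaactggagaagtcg
The sequence is that of the unedited allele. The edited bases were not read here, because the deposited values are counts per gene.

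Each of the 8 libraries held 94746233 to 109595448 fragments, of which 74813731 to 88430180 were counted on genes. S776A-152 stood apart. Genes of the mitochondrial genome took 6.73% of its gene counts, against 3.84%, 4.11% and 4.82% in the other 3 homozygous mice and 3.35% to 4.38% in the 4 WT mice. Multimapping fragments made up 5.79% of this library and 3.59% to 4.56% of the other 7. Among 14578 genes with a mean of at least 1 CPM (gene counts scaled to library size with TMM factors), 1107 lay more than 0.5 log2 above the mean of the WT mice in S776A-152 and 1760 lay that far below it. In the other 7 mice 14 to 181 genes lay that far above and 31 to 348 that far below, each WT mouse being set against the other 3. The deviations of S776A-152 went with transcript length, with a median of 0.20 log2 in the shortest of 4 equal classes of genes by exon length and -0.08 in the longest. S776A-140, S776A-146, WT-138 and WT-157 expressed the Y-linked genes Ddx3y, Kdm5d, Eif2s3y and Uty, and the other 2 mice of each group expressed Xist, so that each group held 2 male and 2 female mice. Xist had a log2 fold change of 0.27 (standard error 1.99). In exact two-sided permutation tests of 8 library measures, the lowest p was 0.114 before and 0.457 after Benjamini-Hochberg adjustment, and the mitochondrial share gave p = 0.229 with all mice and 0.457 without S776A-152.

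**Figure D1:**
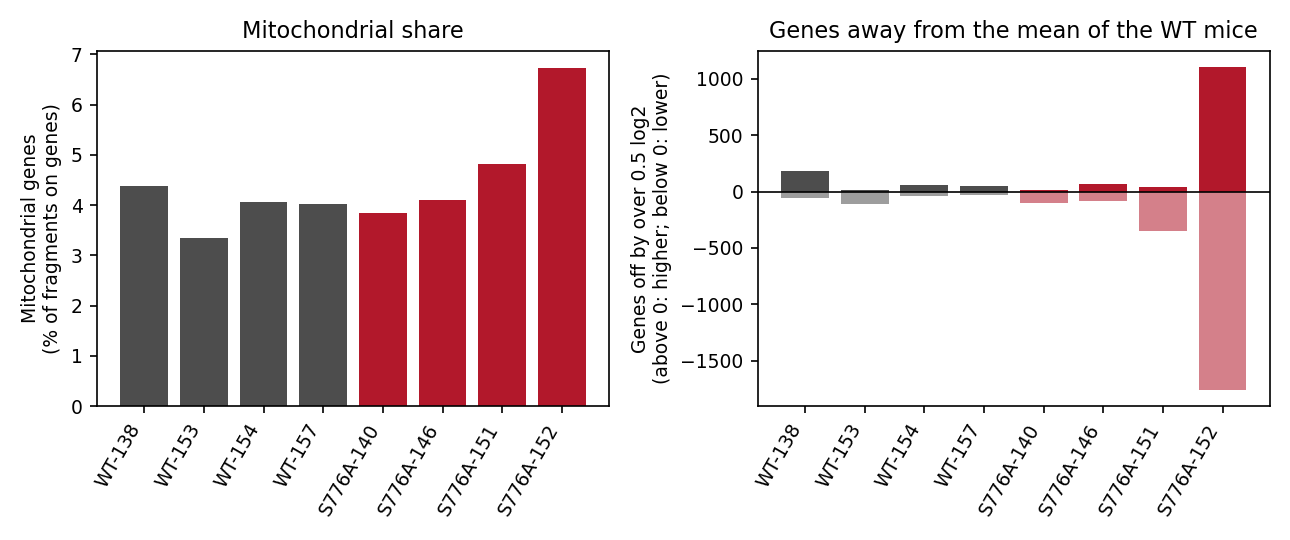
Left, share of gene counts on mitochondrial genes (percent) in each WT and homozygous S776A mouse. Right, number of genes over 0.5 log2 above (bars up) or below (bars down) the mean of the WT mice, or of the other 3 for a WT mouse. S776A-152 had a share of 6.73%, with 1107 genes above and 1760 below, beyond every other mouse.

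No gene passed the threshold. Of 22502 genes tested, 0 (0.0%) were called, where a call needed both a log2 fold change beyond 0.5 in either direction and an adjusted p below 0.01. The lowest adjusted p was 0.485 (edgeR quasi-likelihood test, adjusted by Benjamini-Hochberg). At an unadjusted p under 0.05, 1478 genes were higher in WT S776A homozygous mice (6.57% of those tested) and 768 were lower (3.41%). Without S776A-152 these counts dropped to 245 (1.07%) and 367 (1.6%) of 22911 genes, again with 0 called. Without S776A-140 they were 2428 and 2023, without S776A-146 they were 2443 and 2189, and without WT-153 they were 662 and 528, also with 0 called in edgeR. Without S776A-151 or WT-157, 938 and 941 genes were higher. The fit of the 8 libraries alone gave 366 (1.84%) and 493 (2.47%), and a fit with the mitochondrial share as a covariate 302 and 376, with 0 called in edgeR. DESeq2 on the same 24 libraries called 0 genes, with 1404 higher and 856 lower at an unadjusted p under 0.05. Batch correction by ComBat-seq before DESeq2, after the methods of the study, was the exception and called 125 genes, 75 higher and 50 lower. That run differed in its mice and genes. It set the 4 homozygous mice against all 8 WT mice of both batches, over 39721 genes without the filter on low counts. Of the 125 called, 79 were not among the genes tested in the fit used here. At most 10 counts, summed over the 4 homozygous and 4 WT mice compared here, were held by 68. An absolute log2 fold change over 5 was held by 69. In the fit used here 44 of the 125 had an unadjusted p under 0.05. The median log2 fold change over all genes tested was 0.01 with S776A-152 and -0.0003 without it. A missed threshold in 4 against 4 mice does not show that the groups are alike. The p-values of the fit used here rest on a spread shared over all 24 libraries, not on these 8 mice alone.

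Atxn1, the edited gene (chromosome 13, 45549755 to 45965008, GRCm38), was measured at 55.9, 56.6, 56.6 and 59.0 CPM in the homozygous mice. The WT mice had 47.9, 56.1, 62.0 and 59.2 CPM. The homozygous mice thus lay inside the range of the WT mice, at 57.0 ± 1.34 CPM (SD, n = 4) beside 56.3 ± 6.07 CPM (SD, n = 4). The log2 fold change was 0.02 with a standard error of 0.08 (adjusted p = 0.947, edgeR), and -0.001 without S776A-152. A two-sided exact permutation test of Atxn1 gave p = 0.857, where 0.029 is the smallest p that 4 against 4 mice allow. Its paralog Atxn1l, which shares the CIC-binding domain, had 57.8 ± 8.50 CPM (SD, n = 4) in homozygous and 63.1 ± 4.38 CPM (SD, n = 4) in WT mice. The lowest value, 47.4 CPM, was that of S776A-152, and the log2 fold change of -0.13 became -0.04 without it. Per kilobase of exon, Atxn1 was at 4.10 and Atxn1l at 7.69 CPM per kb in homozygous mice, with 4.05 and 8.38 in WT mice.

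Around Atxn1 on chromosome 13, 14 of the 36 genes whose middle lies within 1 Mb were tested, Atxn1 included, and none was called. Their median log2 fold change was 0.04, and 0.01 without S776A-152. Jarid2, a component of the Polycomb repressive complex, had a log2 fold change of 0.01. The neighbour Fam8a1 alone had an unadjusted p under 0.05 (6.57% of all genes were higher at that p). It was at 93.0 to 123 CPM in homozygous and 93.6 to 100.3 CPM in WT mice, and its log2 fold change of 0.15 became 0.07 without S776A-152.

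The partners of ATXN1 showed no called change. Of 16 partner genes 15 were tested, since Gfi1, a zinc finger repressor, had 0 to 3 counts in every library. The 15 log2 fold changes had a median of 0.01. Anp32a, a leucine-rich nuclear protein that binds ATXN1, was the only one with an unadjusted p under 0.05 (log2 fold change 0.19, and 0.09 without S776A-152). Its highest values, 400 and 448 CPM, were those of S776A-151 and S776A-152, while S776A-140 and S776A-146, at 338 and 325 CPM, lay among the WT mice at 318 to 343 CPM. Among all genes tested 6.57% were higher at an unadjusted p under 0.05. Cic itself was at 178, 191, 113 and 56.3 CPM in the homozygous mice, and at 150 to 186 CPM in WT mice. S776A-151 and S776A-152 lay below every WT mouse, while the other 2 homozygous mice lay within or above the WT range. Rbm17, a splicing factor that binds ATXN1, had a log2 fold change of 0.10 (0.02 without S776A-152).

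None of the genes of the proteins that act on S776 was called. Of 7 genes for 14-3-3 proteins, Ywhab had an unadjusted p of 0.021, with 494 to 602 CPM in homozygous and 477 to 500 CPM in WT mice, and a log2 fold change of 0.14 that became 0.07 without S776A-152. The median of the 7 was 0.003. Of 18 genes for the proposed kinases and the phosphatase PP2A, Rps6ka5, which encodes MSK1, was alone in having an unadjusted p under 0.05 (log2 fold change 0.14, and 0.12 without S776A-152). Homozygous mice had 82.2 to 89.7 CPM of it and WT mice 69.0 to 85.2 CPM. At an unadjusted p under 0.05, 6.57% of all genes were higher. Prkaca, a catalytic subunit of PKA, had a log2 fold change of -0.06. Prkacb, a further catalytic subunit, was at 387, 416, 420 and 430 CPM in homozygous mice and at 365 to 382 CPM in WT mice. These groups did not overlap, as was so for 296 of the 22502 genes in the higher direction (1.32%), and the log2 fold change of 0.15 had an unadjusted p of 0.062.

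Targets of CIC, genes that this repressor holds down and that rise when it is lost, were mostly at lower values, and none was called. Of the 15 tested, 11 had a log2 fold change under 0, with a median of -0.17 that became -0.10 without S776A-152. Etv5, the one with an unadjusted p under 0.05 in the fit used here, is an ETS transcription factor and an established CIC target. It was at 73.6, 60.4, 91.4 and 81.7 CPM in homozygous mice and at 108, 115, 85.4 and 99.6 CPM in WT mice. The ranges overlapped through S776A-151 and WT-154. The log2 fold change was -0.41 (standard error 0.19, adjusted p = 0.497 in edgeR) and -0.44 without S776A-152. In the fit used here 3.41% of all genes were lower at an unadjusted p under 0.05. Ccnd2, a D-type cyclin, was at 8.00 to 8.597 CPM in homozygous and 9.20 to 13.0 CPM in WT mice with no overlap, a pattern that 298 genes (1.32%) had in the lower direction. Its log2 fold change of -0.34 had an unadjusted p of 0.199. In the fit of the 8 libraries alone Ccnd2 had an unadjusted p of 0.012 and Etv5 0.0073 (edgeR). In that fit 2.47% of all genes were lower at an unadjusted p under 0.05. The ETS genes Etv1 and Etv4 had log2 fold changes of 0.09 and -0.16, and the ERK-pathway inhibitors Spry4 and Spred2 had -0.43 and -0.23 with wide spread in both groups. Windows of 250 bases upstream of the annotated start were found in RefSeq (GRCm38.p6) for 8 of these genes. The CIC-binding octamers TGAATGAA and TGAATGGA, searched on both strands, occurred in the window of 1 of the 8 genes (Spred3), and in 2.07% of all windows.

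Immediate early genes, which neurons transcribe within minutes of activity and which encode mostly transcription factors, made up the list with the lowest median after that of the choroid plexus. Of 16 genes 14 had a log2 fold change under 0, with a median of -0.67, and 7 had an unadjusted p under 0.05, all lower (3.41% of all genes were lower at that p). In edgeR none was called, and the adjusted p of each of the 7 was at or above 0.485. ComBat-seq before DESeq2, against all 8 WT mice, called Fosb (log2 fold change -1.48). Genes of this list vary together between mice, so their number does not count as separate observations. Without S776A-152 the median was -0.55 and 6 genes lower had an unadjusted p under 0.05 (1.6% of all genes).

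Nr4a1, which encodes the orphan nuclear receptor NUR77, was at 19.2, 8.49, 10.9 and 11.2 CPM in the homozygous mice. In the WT mice it was at 32.8, 22.6, 34.7 and 22.3 CPM. Every homozygous mouse lay below every WT mouse. The log2 fold change was -1.18 with a standard error of 0.36 (unadjusted p = 0.0044, adjusted p = 0.485, edgeR) and -1.13 without S776A-152. In DESeq2 on the 8 libraries it was the 1 gene with an adjusted p under 0.05 (0.0286), which does not reach 0.01.

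Fos, a subunit of the AP-1 transcription factor, was at 22.6, 5.24, 8.73 and 12.6 CPM in the homozygous mice and at 49.4, 31.2, 55.1 and 23.3 CPM in the WT mice. The groups did not overlap, although S776A-140 and WT-157 were close, and the log2 fold change was -1.69 with a standard error of 0.54. Egr4, a zinc finger factor, was at 12.1, 8.86, 7.87 and 6.43 CPM in homozygous mice and at 12.5, 13.7, 15.2 and 12.4 CPM in WT mice, again without overlap. Its log2 fold change was -0.61 (standard error 0.19). In all, 3 of the 16 genes were lower without overlap, beside 298 of all 22502 genes (1.32%). The other 4 genes with an unadjusted p under 0.05 overlapped between the groups. Fosb, a further AP-1 subunit, was at 0.393 to 1.12 CPM in homozygous and 0.897 to 2.52 CPM in WT mice (log2 fold change -1.49). Npas4, an activity-dependent factor of neurons, was at 0.826 to 2.76 and 1.32 to 10.0 CPM (-1.69), Egr3 at 0.197 to 0.432 and 0.380 to 0.511 CPM (-0.74), and Nr4a2 at 7.75 to 39.1 and 22.4 to 60.9 CPM (-0.93). S776A-140 had the highest value of its group for Fos, Fosb, Egr3, Egr4, Nr4a1 and Nr4a2.

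Not every immediate early gene was lower. Junb, Egr1, Arc and Btg2 had log2 fold changes of -0.12, -0.18, -0.08 and 0.10, and Ier5 had 0.06. Nr4a3, a further receptor of the Nr4a family, was at 6.46 to 30.7 CPM in homozygous and 15.6 to 58.4 CPM in WT mice (-1.10). Dusp1, a MAP kinase phosphatase, was at 30.9 to 46.4 CPM in homozygous mice and spread from 30.03 to 121 CPM in WT mice. Summed over the 16 genes, homozygous mice had 321, 245, 224 and 242 CPM and WT mice 392, 368, 464 and 314 CPM, so that S776A-140 lay above WT-157. The 4 WT mice of the other batch had 247 to 390 CPM, not corrected for batch. WT sums of some other lists shifted between the batches. The 14-3-3 genes had 3514 to 3689 CPM there and 4810 to 5068 CPM in the 4 WT mice compared here. The range of the other batch thus gives no measure of the WT spread here.

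**Figure D2:**
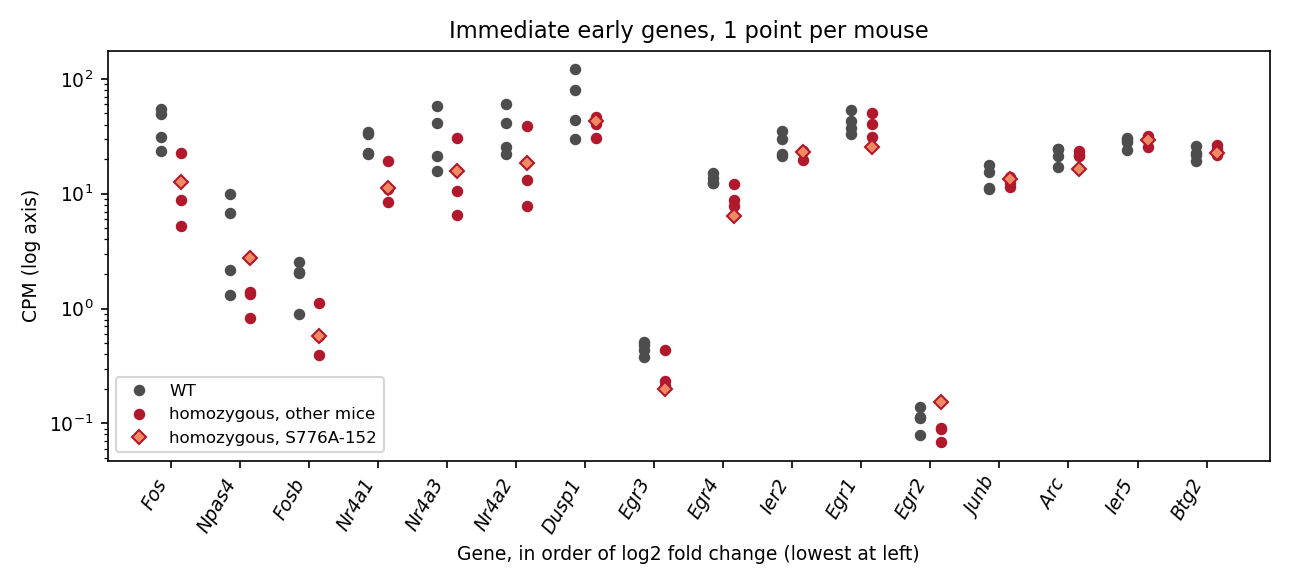
CPM (log axis) of 16 immediate early genes in each WT mouse and each homozygous mouse, with S776A-152 as a diamond. For Nr4a1, Fos and Egr4 all 4 homozygous mice lie below all 4 WT mice, while Junb, Arc, Ier5 and Btg2 intermix.

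The upstream sequences of the 3 immediate early genes whose groups did not overlap are shown because many genes of this class respond to activity through cyclic AMP response elements. Each is the 250 bases before the annotated start (RefSeq, GRCm38.p6), written 5′ to 3′ on the strand of the gene, with each TGACG or its reverse complement CGTCA, the core of that element, in capitals.
Fos, plus strand, chr12:85473640-85473889: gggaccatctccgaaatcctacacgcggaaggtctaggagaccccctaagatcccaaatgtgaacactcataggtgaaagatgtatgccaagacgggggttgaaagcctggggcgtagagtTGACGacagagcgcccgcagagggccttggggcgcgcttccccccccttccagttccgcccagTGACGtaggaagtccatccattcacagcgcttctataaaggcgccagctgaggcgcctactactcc
Egr4, minus strand, chr6:85513590-85513839: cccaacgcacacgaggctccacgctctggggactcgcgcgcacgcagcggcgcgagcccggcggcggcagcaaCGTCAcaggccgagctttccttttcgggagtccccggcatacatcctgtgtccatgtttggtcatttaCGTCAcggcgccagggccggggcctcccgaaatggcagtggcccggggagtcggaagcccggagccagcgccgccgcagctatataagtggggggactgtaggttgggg
Nr4a1, plus strand, chr15:101266596-101266845: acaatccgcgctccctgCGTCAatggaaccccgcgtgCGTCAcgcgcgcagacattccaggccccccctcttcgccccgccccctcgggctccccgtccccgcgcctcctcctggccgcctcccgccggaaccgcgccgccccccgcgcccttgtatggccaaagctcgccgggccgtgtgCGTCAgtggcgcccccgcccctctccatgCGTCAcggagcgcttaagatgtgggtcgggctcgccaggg
The windows of Fos and Egr4 held 2 cores each and that of Nr4a1 held 4. Of 12 immediate early genes with a window, 11 held the core in at least 1 window, among them Junb and Btg2, whose values intermixed. Over all 32851 windows 17.8% held it, without matching on base composition. The full element TGACGTCA, which contains the core, was in the windows of Btg2 and Dusp1 and in 1.55% of all windows. Windows of Arc, Egr1, Egr3 and Ier2 were not used here.

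No marker of a cerebellar cell type was called. At an unadjusted p under 0.05, 6.57% of all genes were higher and 3.41% were lower. In bulk tissue fewer cells of a type and less RNA per cell cannot be told apart. Of 18 Purkinje cell markers 11 had a log2 fold change under 0, with a median of -0.13 that became -0.03 without S776A-152, and S776A-152 had the lowest of the 4 homozygous values for 11 of the 18. Calb1, which encodes calbindin, was at 1262, 1307, 1529 and 1515 CPM in homozygous and at 1580, 1240, 1256 and 1314 CPM in WT mice, a log2 fold change of 0.06. The glutamate transporter gene Slc1a6 had an unadjusted p under 0.05, with a log2 fold change of -0.33 that became -0.15 without S776A-152. It was at 237, 260, 167 and 114 CPM in homozygous mice and at 229 to 260 CPM in WT mice, so that S776A-140 and S776A-146 lay among the WT mice and S776A-151 and S776A-152 below them. Of 14 granule cell markers, Neurod1, a transcription factor of these neurons, had an unadjusted p under 0.05 (480 to 617 CPM in homozygous and 436 to 506 CPM in WT mice, log2 fold change 0.20, and 0.12 without S776A-152). The list had a median of 0.07, and Gabra6, a GABA-A receptor subunit of granule cells, had 0.12, while without S776A-152 these were 0.04 and 0.02.

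Other neurons and glia gave few or no genes below an unadjusted p of 0.05 (6.57% of all genes were higher and 3.41% lower at that p). The 10 markers of molecular layer and Golgi interneurons and the 4 of unipolar brush cells had none, with medians of -0.10 and -0.10 (-0.05 and -0.21 without S776A-152). Their first members were Sorcs3, a sorting receptor, at -0.19 and Eomes, a transcription factor, at -0.70. Eomes was at 26.2, 13.7, 28.2 and 28.3 CPM in homozygous and 26.8 to 49.8 CPM in WT mice. In the fit of the 8 libraries alone it had -0.71 with an unadjusted p of 0.011 (edgeR). In that fit 2.47% of all genes were lower at an unadjusted p under 0.05. The 11 markers of Bergmann glia and astrocytes and the 12 of microglia had none either, with medians of -0.03 and 0.06 (-0.04 and -0.02 without S776A-152). Gfap, the intermediate filament of astrocytes, had -0.16, and Cx3cr1, the fractalkine receptor of microglia, 0.13. Of 14 genes of the oligodendrocyte lineage, Cspg4, a proteoglycan of precursor cells, was at 4.96 to 10.7 CPM in homozygous and 8.93 to 10.8 CPM in WT mice (log2 fold change -0.38, and -0.23 without S776A-152). Mbp, myelin basic protein, had 0.05. Of 12 genes of endothelial cells and pericytes, Vtn, which encodes vitronectin, was at 46.7 to 84.2 and 81.1 to 95.7 CPM (-0.37, and -0.23 without S776A-152), and the tight junction gene Cldn5 had -0.03.

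Among markers of tissue that adjoins the cerebellum, those of the choroid plexus varied widely between mice of both groups. All 15 choroid plexus markers had a log2 fold change under 0, with a median of -1.04 that became -1.35 without S776A-152, and none had an unadjusted p under 0.05. Ttr, which encodes transthyretin, the main product of the choroid plexus, was at 9.97, 880, 614 and 851 CPM in the homozygous mice and at 2660, 506.5, 1245 and 1892 CPM in the WT mice. S776A-140 had almost none, while the remaining homozygous mice lay within the lower part of the WT range. In the fit of the 8 libraries alone 7 of the 15 had an unadjusted p under 0.05, all lower, where 2.47% of all genes were lower at that p, and 0 were called. Summed over the list, the homozygous mice had 235 to 1351 CPM and the WT mice 865 to 3548 CPM. The WT mice of the other batch had 176 to 2997 CPM, not corrected for batch. The part of this tissue in other results was not tested. The 7 markers of the meninges were all under 0 (median -0.32, and -0.18 without S776A-152), with Col1a1 and Col1a2, the chains of type I collagen, at an unadjusted p under 0.05. Col1a1 was at 18.5, 21.9, 12.5 and 9.62 CPM in homozygous and 19.9 to 24.4 CPM in WT mice, and Dcn, which encodes decorin, had a log2 fold change of -0.07. The 5 genes of red blood cells had a median of -0.13 (-0.04 without S776A-152), with Hbb-bs at 85.0 to 129 and 65.0 to 182 CPM. Of 10 genes of the neighbouring brainstem 8 were tested, with a median of 0.42 that became 0.15 in the fit of the 8 libraries alone, 0.29 without S776A-152, 0.78 without WT-157 and -0.05 with the mitochondrial share as a covariate. Th, which encodes tyrosine hydroxylase and is also expressed in some Purkinje cells, was at 6.95, 8.14, 5.46 and 5.21 CPM in homozygous and 8.14 to 10.1 CPM in WT mice (log2 fold change -0.50, and -0.41 without S776A-152). Hoxa5, Hoxb5 and Dbh stayed under 0.5 CPM in every mouse, so that the median of the list rests in part on genes with few counts.

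**Figure D3:**
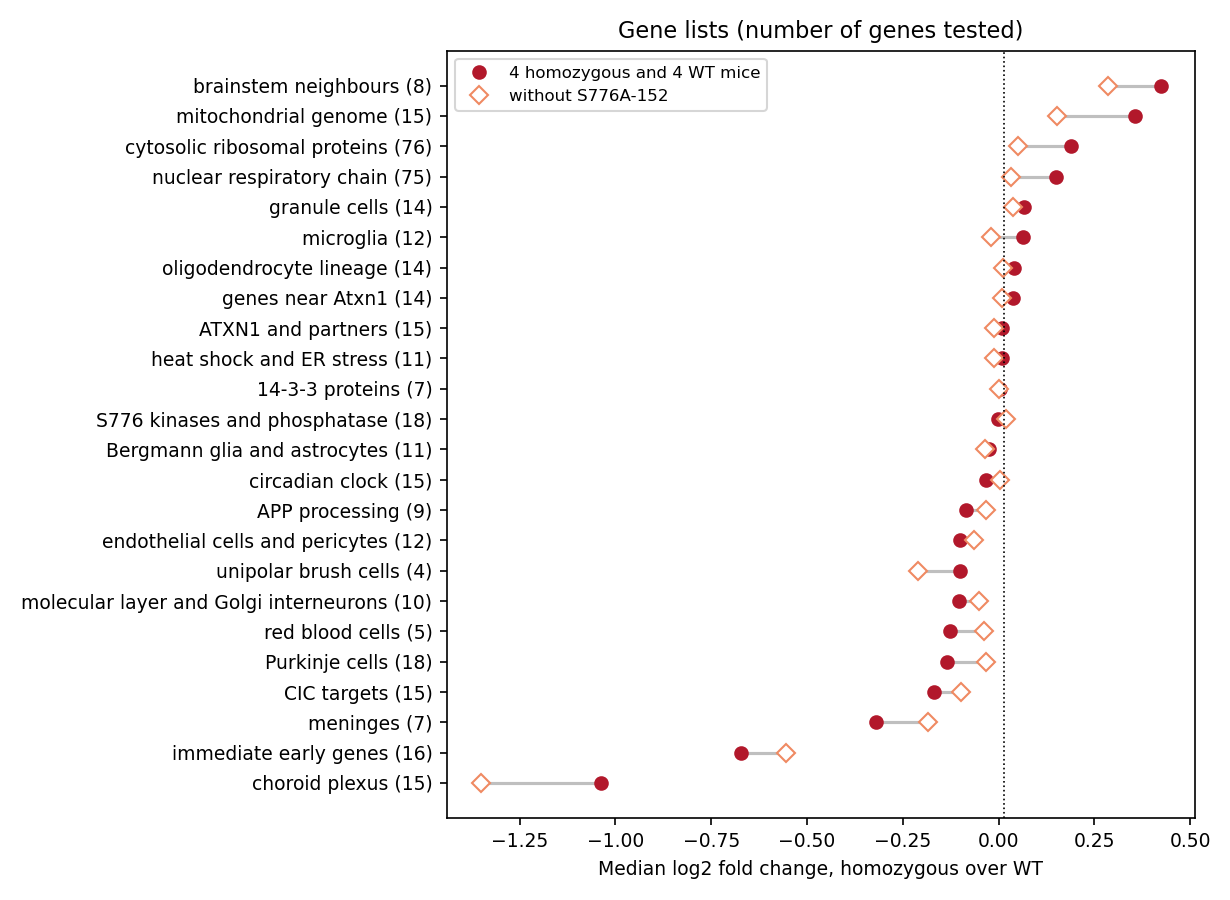
Median log2 fold change of each gene list, WT S776A homozygous over WT, with all 8 mice (filled) and without S776A-152 (open diamonds), and the number of genes tested in brackets. The dotted line is the median of all genes, 0.01. Immediate early genes stay at -0.55 without S776A-152, while those of the mitochondrial genome, ribosomal proteins, the respiratory chain and Purkinje cells move toward the line.

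The lists of oxidative phosphorylation and the ribosome had the most genes at an unadjusted p under 0.05, and none without S776A-152. All 15 genes of the mitochondrial genome examined had a log2 fold change over 0, with a median of 0.36, and 11 had an unadjusted p under 0.05 (6.57% of all genes were higher at that p). S776A-152 had the highest homozygous value for each of the 15. mt-Nd1, a subunit of complex I, was at 4297, 5011, 5350 and 7606 CPM in homozygous and at 4687, 3654, 4421 and 4604 CPM in WT mice. Without S776A-152 the median of the list was 0.15 and 0 of the 15 had an unadjusted p under 0.05. Of 75 nuclear genes of the respiratory chain and ATP synthase 73 were over 0, with a median of 0.15 and 15 at an unadjusted p under 0.05, against 0.03 and 0 without S776A-152. Ndufa1, a complex I subunit, had 0.17. Of 76 cytosolic ribosomal protein genes tested 74 were over 0, with a median of 0.19 and 32 at an unadjusted p under 0.05, against 0.05 and 0 without S776A-152. Rps24, the one with the smallest p, was at 202, 216, 248 and 337 CPM in homozygous and 188 to 228 CPM in WT mice, and Rpl7 had 0.14. S776A-152 had the highest homozygous value for 75 of the 76. The part of the length trend of S776A-152 in these lists was not tested.

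Stress, clock and amyloid precursor protein genes showed no called change. Among all genes tested 6.57% were higher at an unadjusted p under 0.05. Of 11 genes of heat shock and endoplasmic reticulum stress, Hsp90aa1, a cytosolic chaperone, had an unadjusted p under 0.05 (log2 fold change 0.19, and 0.10 without S776A-152), and the inducible chaperone Hspa1a had -0.05. The 15 circadian clock genes had a median of -0.03 and none at that p, with Arntl, which encodes BMAL1, at -0.08. Per2, which encodes a repressor of the clock, was at 30.1, 28.3, 27.2 and 27.4 CPM in homozygous and at 30.7 to 37.6 CPM in WT mice, without overlap. Its log2 fold change was -0.33 with a standard error of 0.47 (unadjusted p = 0.492, edgeR), and -0.34 with an unadjusted p of 0.00196 in the fit of the 8 libraries alone. In that fit 2.47% of all genes were lower at an unadjusted p under 0.05. Without overlap 298 of all 22502 genes (1.32%) were lower. Per1, a clock gene that also responds to activity, was at 99.5, 89.4, 44.1 and 30.6 CPM in homozygous and at 60.3 to 114 CPM in WT mice. Of 9 genes of amyloid precursor protein processing, Adam10, an alpha-secretase, had an unadjusted p under 0.05 (log2 fold change 0.15, and 0.07 without S776A-152). Bace1, the beta-secretase whose transcription has been tied to ATXN1 loss, was at 92.0, 91.9, 87.1 and 77.5 CPM in homozygous and at 86.7 to 97.6 CPM in WT mice (-0.08).

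The genes with the smallest p among those whose groups did not overlap are given as a description, since non-overlap and the p chose them. The 12 higher genes had log2 fold changes of 0.24 to 0.74 and the 12 lower genes -0.22 to -0.64, all with an adjusted p of 0.485. Their medians were 0.34 and -0.47, and 0.22 and -0.37 without S776A-152, which was the highest homozygous mouse for 12 of the 12 higher genes and the lowest for 10 of the 12 lower. Gpn3, a GTPase that takes part in the nuclear import of RNA polymerase II, had the smallest p of all genes, at 32.6, 35.2, 33.3 and 38.6 CPM in homozygous and at 28.4, 26.9, 27.6 and 28.9 CPM in WT mice. Its log2 fold change was 0.32 (standard error 0.07) and 0.27 without S776A-152. Micu3, a regulator of mitochondrial calcium uptake, was at 188.9, 204, 220.01 and 262 CPM in homozygous and 159 to 188.5 CPM in WT mice. Pkib, an inhibitor of PKA, was at 74.6, 80.5, 87.9 and 110 CPM in homozygous and 66.2 to 72.7 CPM in WT mice, a log2 fold change of 0.35 that became 0.22 without S776A-152. Uchl5, a deubiquitinase of the proteasome, had 0.31, Cdkn2c, an inhibitor of cyclin-dependent kinases, 0.41, and Pafah1b3, a subunit of platelet-activating factor acetylhydrolase, 0.37. The remaining higher genes were Ogfrl1, Ephx4 and Ankrd29 at 0.29, 0.29 and 0.24, and the zinc finger gene Zfp120 with 5430403G16Rik and Gm49359 at 0.44, 0.74 and 0.44. Copies of zinc finger genes resemble each other, and Gm49359 overlaps Zfp935 in the annotation, so counts of these genes are uncertain.

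Among the 12 lower genes, Tnc, the matrix glycoprotein tenascin C, was at 33.6, 32.6, 38.8 and 25.0 CPM in homozygous and at 44.4, 50.04, 47.7 and 39.7 CPM in WT mice (log2 fold change -0.48, and -0.38 without S776A-152). Slit3, an axon guidance ligand, was at 11.6, 14.1, 10.2 and 7.14 CPM in homozygous and 14.6 to 17.4 CPM in WT mice (-0.55, and -0.40 without S776A-152). Angptl2, a secreted angiopoietin-like protein, had -0.54, Sned1, a matrix glycoprotein, -0.31, Tnfrsf11b, the decoy receptor osteoprotegerin, -0.39, and Lsr, a lipoprotein receptor of tricellular junctions, -0.64. Rcn3, a calcium-binding protein of the endoplasmic reticulum, was at 3.20, 3.78, 2.67 and 3.45 CPM in homozygous and 4.37 to 4.85 CPM in WT mice, and its log2 fold change of -0.49 was -0.52 without S776A-152. Fam117a, Zcchc2 and Ascc2, a subunit of the ASCC helicase complex, had -0.49, -0.22 and -0.24. The noncoding 3110039I08Rik and Gm36937 had -0.46 and -0.40. Gm36937 lies antisense to Kcnj9 and 3110039I08Rik overlaps 14 annotated genes, and the counts used carry no strand, so that reads of a gene and its partner cannot be told apart. In all, 13 of the 24 genes have an annotated span that overlaps a gene of the opposite strand, among them Gpn3, Micu3, Ephx4 and Ankrd29 of the higher genes and Tnc, Slit3, Angptl2, Sned1, Lsr, Rcn3 and Fam117a of the lower. Atxn1 overlaps 3 such genes. Without S776A-152 the 3 smallest p on each side among non-overlapping genes were those of Gpn3, Micu3 and Pkib, and of Rcn3, Pus7l and Tnc. Pus7l was at 1.77, 1.93 and 1.76 CPM in S776A-140, S776A-146 and S776A-151, 2.28 CPM in S776A-152 and 2.19 to 2.58 CPM in WT mice.

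**Figure D4:**
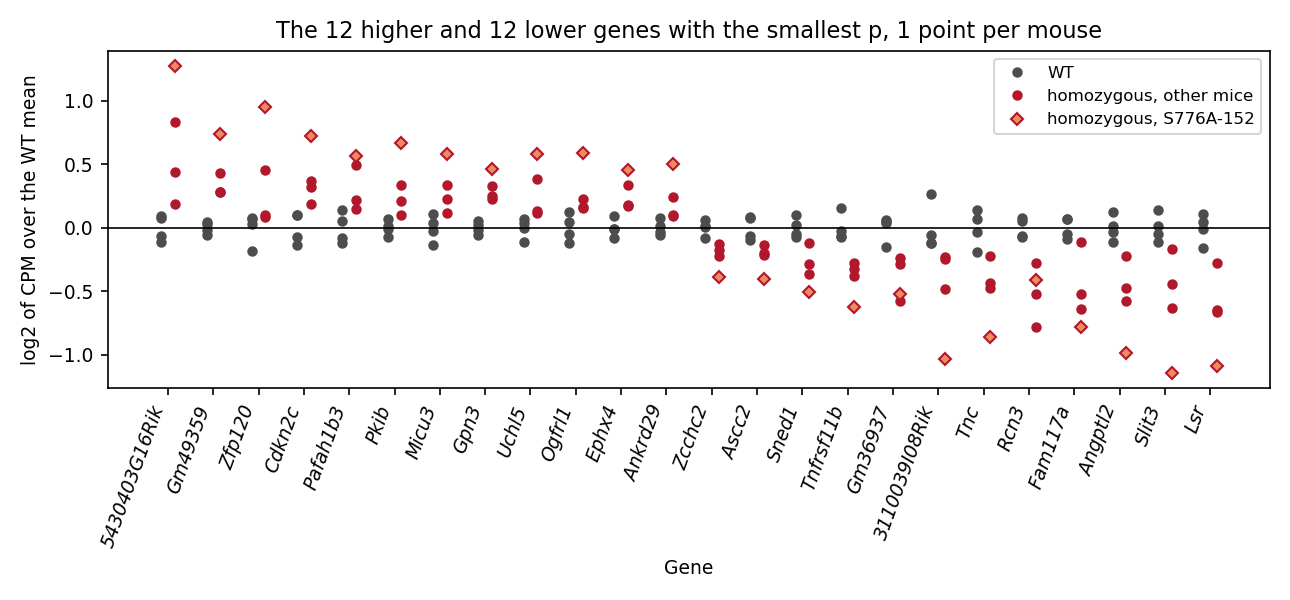
log2 of CPM over the mean of the 4 WT mice for the 12 higher and 12 lower genes with the smallest p, 1 point per mouse, with S776A-152 as a diamond. The choice of genes fixes that the groups do not overlap. S776A-152 is the outermost homozygous mouse for 12 of the 12 higher and 10 of the 12 lower genes.

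The same substitution on the Atxn1_2Q allele can be read in mice that carry the expanded allele, by setting S776A double against SCA1 S776A mice, 4 libraries each of the other batch that share none with the groups above. Atxn1 had a log2 fold change of 0.02 there and 0.02 in WT S776A homozygous mice, although the double mice differ by 1 edited allele and the homozygous mice by both. The 12 higher genes had a median of 0.09 there, with 12 of 12 over 0, and the 12 lower genes a median of -0.11, with 8 of 12 under 0. Over all genes tested 10927 of 22502 were over 0. The mitochondrial genome, respiratory chain and ribosomal protein lists, in which S776A-152 was highest for most genes, were mostly over 0 there too. They had 15 of 15, 70 of 75 and 72 of 76 genes over 0. S776A-152 was also highest for most markers of microglia, the oligodendrocyte lineage and unipolar brush cells. Of these, 5 of 12, 6 of 14 and 2 of 4 were over 0 there. Angptl2 and Lsr were at -0.41 and -0.33 there, while Tnfrsf11b was at 0.24. Of the 16 immediate early genes 12 were over 0 there, with a median of 0.09. Nr4a1 was at 0.01 and Fos at 0.42. In an interaction contrast of the edgeR fit 648 genes of all tested had an unadjusted p under 0.05 for the difference between the effects, 0 were called and the lowest adjusted p was 0.997. No p is given for single genes, which were chosen on their values in one arm of that contrast.

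The genes that changed in SCA1 mice were examined in the WT S776A homozygous mice, which share no library with that comparison. In SCA1 mice against the 4 WT mice of their own batch, 31 genes were called lower and 8 higher. None of these 39 genes was called in WT S776A homozygous mice. The 31 had a median log2 fold change of -0.07 there, with 17 under 0, beside -0.80 in SCA1 mice, and the 8 had 0.11, beside 0.75. Without S776A-152 these medians were -0.03 and 0.05. Chrna3, a nicotinic receptor subunit that was at -1.86 in SCA1 mice, was at 2.27, 2.31, 2.304 and 2.20 CPM in homozygous and 1.48 to 2.06 CPM in WT mice, the opposite direction, without overlap, with a log2 fold change of 0.33. Chrnb4, which encodes a subunit that assembles with it and is its neighbour in the genome, was at 0.46, beside -1.89 in SCA1 mice. Groups without overlap, as for Chrna3, were seen in the higher direction for 296 of the 22502 genes (1.32%). Among the 31, 4 were lower at an unadjusted p under 0.05, namely Myo15, an unconventional myosin, at -0.41, Col13a1, a transmembrane collagen, at -0.35, and Prom2 and Stac at -0.30 and -0.25. Over all genes 3.41% were lower at that p, and without S776A-152 Myo15 (-0.43) was the only one of the 4 left, beside 1.6% of all genes. Myo15 was at 1.18 to 2.10 CPM in homozygous and 1.70 to 2.91 CPM in WT mice. Of the 8 genes Synpr, a synaptic vesicle protein, and Rprm, a p53-induced gene, had 0.29 and 0.28 with an unadjusted p under 0.05. Over all genes 6.57% were higher at that p, and 1.07% without S776A-152. Synpr was at 114, 130, 130 and 158 CPM in homozygous and 101 to 117 CPM in WT mice, and without S776A-152 its log2 fold change was 0.19, with only Rprm (0.28) of the 8 at an unadjusted p under 0.05.

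**Figure D5:**
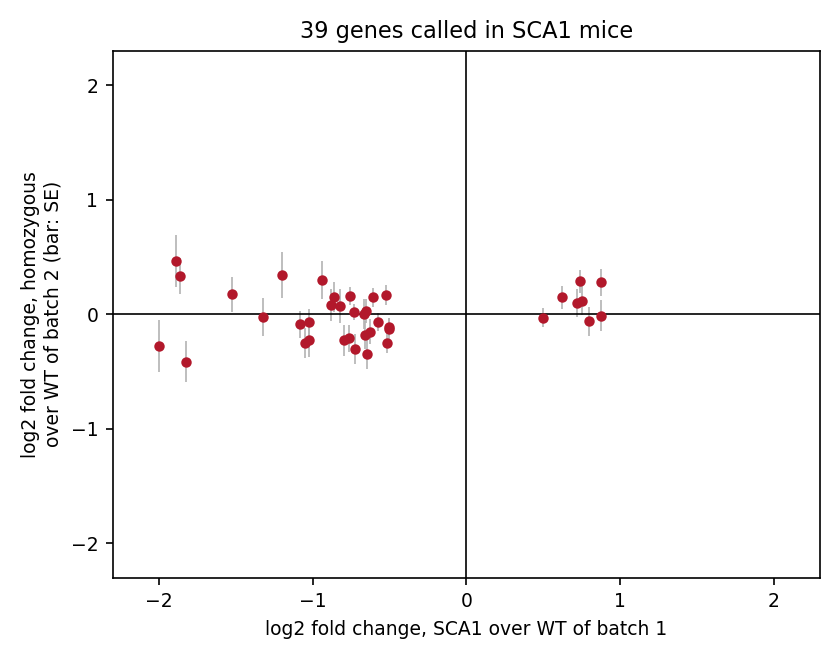
log2 fold change of the 39 genes called in SCA1 mice, in SCA1 over WT mice of the other batch (x axis) and in WT S776A homozygous over WT mice (y axis), with bars for the standard error. The 39 genes lie between -2.0025 and 0.88 along x and between -0.41 and 0.46 along y.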

How the data were processed

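Total RNA of the cerebellum was prepared with a column kit and sequenced on an Illumina instrument by a sequencing provider. Per the labels and the methods of the study, the authors trimmed reads with Trimmomatic 0.36, aligned them with STAR 2.7.2d to GRCm38.p6 and deposited STAR's gene-level fragment counts, raw and without normalization. The unstranded column was used, as fragments split evenly between strands. Of 54232 genes in each file 54165 matched GENCODE M21, and 1 other entry is not used here.

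Counts were fitted with edgeR 4.0.16 (R 4.3.3, limma 3.58.1), robust quasi-likelihood, TMM factors (0.944 to 1.056) and filterByExpr, which left 22502 genes. All 24 libraries entered with 1 mean per genotype and inferred batch, so that the spread (biological coefficient of variation 12.9%) was shared. The 4 homozygous mice were contrasted with the 4 WT mice placed in the same batch. Benjamini-Hochberg adjustment ran over all genes tested, and the thresholds of the study were used (adjusted p under 0.01, absolute log2 fold change over 0.5). The fit was tested on simulated data. Pairs of libraries of 1 genotype and batch differed by more than sampling noise (chi-square per degree of freedom 16.21 or more), so none was merged. Depth leaves little counting error at several CPM, but genes under 0.5 CPM rest on few counts.

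The genes named were Atxn1 and Atxn1l, the 12 higher and 12 lower genes with the smallest p among genes of at least 1 CPM whose groups did not overlap, the 3 and 3 when the library with the highest mitochondrial share was left out, each list's first member, and up to 6 members per list with an unadjusted p under 0.05. Further genes, among them Cic, Rbm17, Prkacb, Ccnd2, Etv4, Spry4, Spred2, Per1, Per2, Chrna3, Chrnb4 and other members of the lists, were chosen after their values were seen, and some list members are not reported here. The members and lists were chosen with earlier results of these data known. Exact permutation tests planned for the summed CPM of cell type lists were not run, and ranges are given. Alternatives were the 8 libraries alone, DESeq2 1.42.0, ComBat-seq (sva 3.50.0) before DESeq2, RLE factors, no filter, removal of the mitochondrial genome, Xist or the mitochondrial share as a covariate, and each library left out. A fit of the 8 libraries less S776A-152 was chosen after seeing the data.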

Additional observations from a re-analysis of the deposited data

Results flagged for a closer look

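In 120 groups of 4 mice, 4 held a mouse whose gap to the nearest of the others, over the range of the group, was above Dixon's critical value, where 6 are expected by chance at 1 in 20. The share of ambiguous fragments was 5.41% in S776A-146 and 5.26% to 5.28% in the other homozygous mice. Ogfrl1 was at 405 CPM in S776A-152 and at 301 to 315 CPM in the other homozygous mice. The noncoding 3110039I08Rik was at 9.62 CPM in WT-154 and at 7.35 to 7.66 CPM in the other WT mice. Gm36937 was at 1.73 CPM in WT-138 and at 1.97 to 2.01 CPM in the other WT mice.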

How the results depend on the processing

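No paired analysis was possible because the animal numbers in the labels are not repeated between the groups. Under 17 of the 18 alternatives 0 genes were called, and 125 were called after ComBat-seq with DESeq2. That run alone contrasted the homozygous mice with all 8 WT mice. The genes higher at an unadjusted p under 0.05 numbered 366 in the 8 libraries alone, 413 with DESeq2 on them, 2544 after ComBat-seq, 302 with the mitochondrial share as a covariate and 160 in the 8 libraries less S776A-152 (chosen after seeing the data), and the genes lower numbered 493, 515, 2500, 376 and 374. Leaving out 1 library gave 245 to 2443 higher and 367 to 2189 lower. The cause was not tested. Of 1557 log2 fold changes of 87 named genes under 18 alternatives 1527 kept their sign. With the mitochondrial share as a covariate the sign turned for Atxn1 (-0.027), Atxn1l (0.0234), Bace1 (0.0251), Calb1 (-0.0368), Gabra6 (-0.0165), Mbp (-0.0016), Hoxa5 (-0.2648), Hspa1a (0.0846), Ndufa1 (-0.0427), Rpl7 (-0.0333) and Xist (-2.6614), and with Xist as a covariate for Hbb-bs (0.0143). Leaving out 1 library gave -0.0596 to 0.0546 for Atxn1, -0.0951 to 0.0019 for Cldn5, -0.1416 to 0.0159 for Dcn, -0.3383 to 0.1579 for Hbb-bs, -0.1504 to 0.0454 for Hspa1a, -0.0515 to 0.0548 for Jarid2 and -0.3632 to 0.9531 for Xist. In the 8 libraries less S776A-152 the sign turned for Atxn1 (-0.0002), Cldn5 (0.0034), Hspa1a (0.0479) and Xist (-0.3728). ComBat-seq with DESeq2 called 5430403G16Rik, Rcn3, Lsr, Fam117a, Angptl2 and Fosb among the named genes. Removal of the mitochondrial genome gives no value for its own list. Of 449 list medians 392 kept their sign and 57 did not. The number of mice limits the precision, and so does depth for genes under 0.5 CPM.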
